A study of Mus musculus with 4 samples.

Results

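Cxcl1, Cxcl2 and Cxcl5 were followed across 4 cultures of mouse keratinocytes, the epithelial cells of the epidermis. They are small secreted proteins of the CXC chemokine family, and in the mouse all of them attract neutrophils. The genes were taken by symbol from the platform annotation of the array. Each was read by a single probe set that names no other gene, so 3 genes of the 12393 with a probe set of their own are described. They had been chosen with their values on these arrays known, so the differences below are a description and carry no test.

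The cells were primary keratinocytes from the tail skin of C57BL/6 congenic mice, and in all 4 groups the Prdm1 gene, which encodes the transcriptional repressor Blimp-1, was floxed. CKO cells also had CreER, a Cre recombinase that acts once 4-hydroxytamoxifen (4OHT) binds it, and control cells did not. The labels do not state the promoter of CreER or the number of mice per genotype. The groups were CKO 4OHT, CKO EtOH, control 4OHT and control EtOH, with 4OHT or its solvent ethanol (EtOH) in the medium from day 1 to day 3 and collection on day 5 of a serum-free culture on collagen. Each group had 1 array, so no spread between replicates could be measured, no p-value is given, and genotype cannot be told apart from the animals the cells came from.

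Values are intensities of the Affymetrix Mouse Expression Array 430A after RMA, on a linear scale, and differences are on the log2 scale. Genes whose highest value was at least 20.04, the median over all probe sets and arrays (the table median), are called measured, and there were 7461 of them. A gene is called higher or lower at a difference of at least 2-fold. Where a range alone follows a value of CKO 4OHT, it is the range of the other 3 arrays. Prdm1, the targeted gene, was at 6.43 in CKO 4OHT, 17.0 in CKO EtOH, 52.4 in control 4OHT and 20.7 in control EtOH. Both CKO values were under the table median, so the difference between them rests on dim signal. The labels do not state whether its probe set lies in the floxed part. Of 11 keratinocyte markers read, 10 were at or above the table median on every array, with Krt5 between 3298 and 3774. Itgb4, an integrin of basal keratinocytes, was at 551 in CKO 4OHT, 316 in CKO EtOH, 315 in control 4OHT and 391 in control EtOH. Esr1, the estrogen receptor gene, part of which CreER is built from, was at 44.4 in CKO 4OHT, 54.3 in CKO EtOH, 18.2 in control 4OHT and 11.3 in control EtOH. Ptprc, which marks leukocytes, was between 3.90 and 4.73. The arrays had medians between 19.95 and 20.2.

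Neutrophil chemokines of this kind carry the residues glutamate, leucine and arginine (ELR) just before the CXC motif and act through the receptor Cxcr2 on neutrophils. Epithelial cells make them within hours of wounding, infection or exposure to IL-1, TNF or IL-17. Induction runs through NF-kB, a dimeric transcription factor that binds the kappa B sequence in their promoters, and the messages are short-lived because AU-rich elements recruit decay factors. In skin, keratinocyte chemokines help to draw neutrophils into the epidermis.

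Cxcl1, known as KC or Gro1, had an intensity of 591 in CKO 4OHT, 53.7 in CKO EtOH, 40.8 in control 4OHT and 36.2 in control EtOH. It was above the table median on all 4 arrays. Among the arrays other than CKO 4OHT its values spanned 1.48-fold, and CKO 4OHT lay 11.01-fold above the highest of them.

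Cxcl2, known as MIP-2 and closely related to Cxcl1, was at 220 in CKO 4OHT, 12.9 in CKO EtOH, 9.94 in control 4OHT and 9.06 in control EtOH. The order of the arrays was thus the same as for Cxcl1. The lower values spanned 1.42-fold, all of them under the table median, and CKO 4OHT lay 17.1-fold above the highest.

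Cxcl5, known as LIX, was at 121 in CKO 4OHT, 12.5 in CKO EtOH, 16.1 in control 4OHT and 9.87 in control EtOH. Here control 4OHT was second, above CKO EtOH. The values outside CKO 4OHT spanned 1.63-fold and were again under the table median, and the step up to CKO 4OHT was 7.50-fold. Because Cxcl2 and Cxcl5 passed the level filter through CKO 4OHT alone, their folds start from dim signal whose true level is not resolved. Set against the table median in place of the dim arrays, CKO 4OHT was 11.0-fold higher for Cxcl2 and 6.03-fold higher for Cxcl5.

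**Figure D1:**
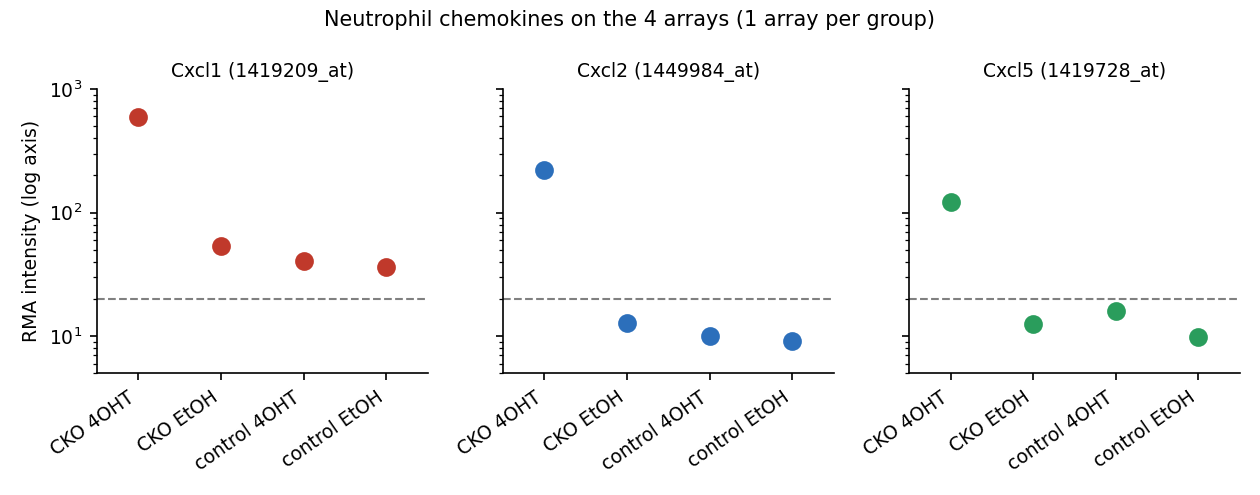
RMA intensity (log axis) of the single probe set of each chemokine on the 4 arrays, 1 point per array, with the table median of 20.04 as a dashed line. CKO 4OHT is the highest array in each panel, at 591 for Cxcl1, 220 for Cxcl2 and 121 for Cxcl5, and the remaining points of Cxcl2 and Cxcl5 lie under the dashed line.

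The genes lie in one cluster on chromosome 5 of the mouse, together with other CXC chemokines, and their promoters were compared because the members moved together. The RefSeq promoter table (GRCm38.p6) holds the windows of Cxcl1, Cxcl2, Cxcl3 and Cxcl15 printed here, while Cxcl5 is named only. The first lines show the 250 bases before the transcription start of Cxcl1 (chr5:90890995-90891244) and of Cxcl2 (chr5:90903649-90903898), on the plus strand. Cxcl3, an ELR chemokine between Cxcl5 and Cxcl1 on the chromosome that no probe set names alone, is shown by 40 bases (chr5:90786013-90786052), and Cxcl15, a dim neighbour described below, by its 250 bases (chr5:90794284-90794533). Capitals mark GGGAATTTCC, a kappa B site, which makes up all but the last base of GGGAATTTCCC, the longest run of letters that Cxcl1, Cxcl2 and Cxcl3 share in these windows (11 bases).
Cxcl1: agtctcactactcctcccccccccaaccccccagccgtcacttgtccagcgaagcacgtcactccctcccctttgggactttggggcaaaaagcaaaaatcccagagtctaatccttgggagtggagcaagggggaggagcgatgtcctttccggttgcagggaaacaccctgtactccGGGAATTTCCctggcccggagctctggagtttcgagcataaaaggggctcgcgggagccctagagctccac
Cxcl2: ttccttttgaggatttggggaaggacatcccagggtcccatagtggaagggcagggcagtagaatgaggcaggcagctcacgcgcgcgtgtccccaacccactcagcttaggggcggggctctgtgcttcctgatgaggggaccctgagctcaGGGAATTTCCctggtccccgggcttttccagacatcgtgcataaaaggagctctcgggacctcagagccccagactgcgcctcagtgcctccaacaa
Cxcl3: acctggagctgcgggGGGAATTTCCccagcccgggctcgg
Cxcl15: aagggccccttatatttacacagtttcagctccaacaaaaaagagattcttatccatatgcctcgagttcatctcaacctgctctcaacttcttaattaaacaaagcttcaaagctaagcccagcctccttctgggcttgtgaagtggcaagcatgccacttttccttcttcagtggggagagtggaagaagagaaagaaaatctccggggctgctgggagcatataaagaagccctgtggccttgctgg

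On either strand, GGGAATTTCC was found in 28 of the 32817 promoter windows of this length, or 0.0853%. It began 71 bases before the start of Cxcl1, 97 bases before that of Cxcl2 and 73 bases before that of Cxcl3, each time on the plus strand. The windows of Cxcl15, Ppbp and Pf4 held no such match. The full shared run GGGAATTTCCC was in 14 windows (0.0427%). Since these letters were read from the promoters of the cluster, their presence there is a description. Between Cxcl1 and Cxcl2 alone the run was 14 bases long, GGGAATTTCCCTGG. TGANTCA, an AP-1 site, was in 6.75% of windows and GAAAGT, a core of the sequence known to bind Blimp-1, in 12.3%. Neither occurred in the windows of Cxcl1 or Cxcl2, which says nothing about binding elsewhere in these genes. The windows of Cxcl1 and Cxcl2 were identical at 62.3% of aligned bases, against 57.9% for Cxcl1 and Cxcl15, while Cxcl2 and Cxcl3 were identical at 74.4%.

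Within 500 kb of the members, 10 further genes were read, of which 3 were measured. The ELR chemokines next to them stayed dim: Ppbp, made by platelets, was between 3.67 and 5.01 on all arrays, and Cxcl15, known as lungkine from its expression in lung, between 5.06 and 6.23. Pf4, platelet factor 4, was between 6.50 and 7.34. Beyond Cxcl2 lie the EGF receptor ligands Epgn (epigen) and Ereg (epiregulin). Epgn was at 842 in CKO 4OHT, 347 in CKO EtOH, 452 in control 4OHT and 393 in control EtOH. Ereg was at 25.02 in CKO 4OHT, 12.0 in CKO EtOH, 14.4 in control 4OHT and 9.67 in control EtOH, under the table median outside CKO 4OHT. Both were highest in CKO 4OHT, by 1.28 and 1.06 over CKO EtOH and by less than 2-fold over control 4OHT. Ankrd17, an ankyrin repeat protein on the far side of the cluster, was between 252 and 285.

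**Figure D2:**
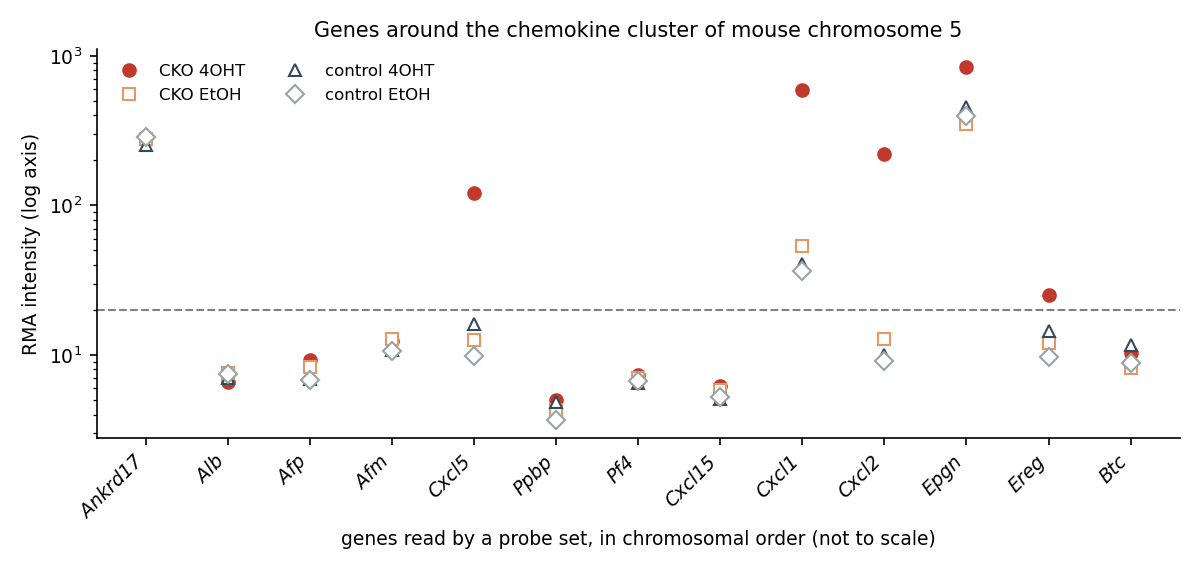
RMA intensity (log axis) of the genes within 500 kb of the chemokines that a probe set reads, in chromosomal order and not to scale, with 1 symbol per array and the table median dashed. Cxcl5, Cxcl1 and Cxcl2 stand out in CKO 4OHT, whereas Ppbp, Pf4 and Cxcl15 between them stay at or under 7.34 on every array.

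What the inducer changed in cells that carry CreER was asked by setting CKO 4OHT against CKO EtOH. The differences were 4.10 for Cxcl2, 3.46 for Cxcl1 and 3.27 for Cxcl5, so 3 of 3 members were higher, where 1.78% of all measured genes were (a further 1.86% were lower). Their median was 3.46 against 0.01 over the measured genes. They ranked 3rd, 5th and 6th from the highest. Relative to each other the members differed by 0.83 at most in this comparison.

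Set against control 4OHT, where the drug was present without CreER, the differences were 4.47 for Cxcl2, 3.86 for Cxcl1 and 2.91 for Cxcl5. Again 3 of 3 were higher, against 1.45% of measured genes (and 2.24% lower), and the ranks were 1st, 5th and 8th. The ranks of Cxcl2 and Cxcl5 rest on dim values. With values under the table median set to it, as chosen after seeing the data, Cxcl1, Cxcl2 and Cxcl5 ranked 4th, 5th and 8th against CKO EtOH and 4th, 5th and 7th against control 4OHT. The members spread over 1.56 here, and Cxcl5 was the one with a higher value in control 4OHT than in CKO EtOH. Both comparisons use the same CKO 4OHT array and are not independent. All 3 genes also counted among the 0.751% of measured genes that lay at least 2-fold above every other array in CKO 4OHT.

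Control 4OHT against control EtOH set the drug beside its solvent in cells without CreER. The difference between drug and solvent is called the drug effect. With 1 culture on each side, it cannot be told apart from a difference between cultures. The differences were 0.71 for Cxcl5, 0.18 for Cxcl1 and 0.13 for Cxcl2, and 0 of 3 were higher by 2-fold, where 1.27% of measured genes were. A difference at least as high as that of Cxcl5 was found in 2.51% of measured genes, and one at least as high as those of Cxcl1 and Cxcl2 in 22.8% and 26.9%. Cxcl2 and Cxcl5 were under the table median on both arrays, so their differences rest on dim signal. Subtracting the drug effect in control cells from that in CKO cells left 3.96 for Cxcl2, 3.29 for Cxcl1 and 2.56 for Cxcl5. With log2(intensity + 16), which damps dim signal, these were 2.98, 3.00 and 1.95. At least 2-fold in this direction was reached by 2.75% of measured genes.

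CKO EtOH against control EtOH set CreER cells beside cells without it, both in solvent. All 3 members were somewhat higher in CKO EtOH, by 0.57 for Cxcl1, 0.51 for Cxcl2 and 0.35 for Cxcl5. None reached 2-fold, which 0.0536% of measured genes did. A value as high as that of Cxcl1 was found in 0.684% of measured genes, of Cxcl2 in 0.965% and of Cxcl5 in 3.71%. Cxcl2 and Cxcl5 were under the table median on both arrays, so their differences and shares rest on dim signal. With values under the table median set to it, as chosen after seeing the data, the differences of Cxcl2 and Cxcl5 became 0. The median of all measured genes was -0.03. This step was at most 1.48-fold, and with 1 culture on each side it cannot be told apart from a difference between cultures.

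**Figure D3:**
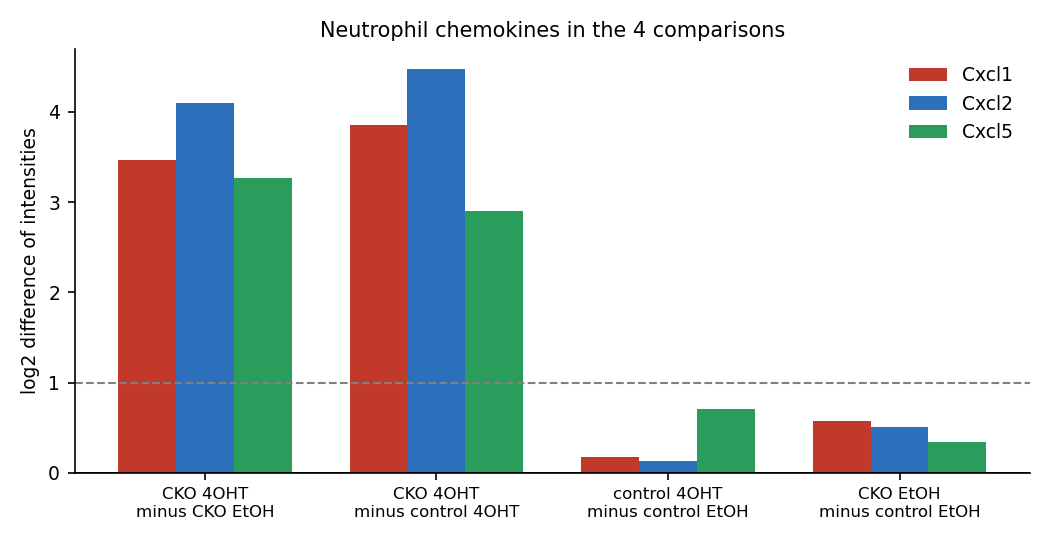
Log2 difference of RMA intensities for Cxcl1, Cxcl2 and Cxcl5 in the 4 comparisons, 1 bar per gene, with 2-fold as a dashed line. The bars of both comparisons with CKO 4OHT lie between 2.91 and 4.47, and those of the comparisons without it lie between 0.13 and 0.71.

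Receptors for these chemokines were looked for next. Cxcr2, the receptor of all 3 members on neutrophils, was at 12.4 in CKO 4OHT, 10.1 in CKO EtOH, 14.4 in control 4OHT and 12.1 in control EtOH, under the table median throughout. Ackr1, an atypical receptor that binds chemokines without signalling, was between 33.9 and 41.1. No probe set names Cxcr1 alone.

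None of the other chemokines that were measured was higher by 2-fold in CKO 4OHT. Most were too dim to judge, and no probe set names Cxcl3, Ccl19 or Ccl21a alone. Over all measured genes 1.78% were higher and 1.86% lower against CKO EtOH, and 1.45% and 2.24% against control 4OHT. Of 9 further CXC chemokines read, 4 were measured, and the 1 past 2-fold was Cxcl14, which keratinocytes make at rest. It was lower, with 92.4 in CKO 4OHT, 245 in CKO EtOH, 194 in control 4OHT and 187 in control EtOH. A second Cxcl14 probe set gave -0.97 against CKO EtOH and -0.98 against control 4OHT, just short of 2-fold. Of 20 CC, CX3C and XC chemokines read, 4 were measured and none was past 2-fold in any of the 4 comparisons. Ccl2, which attracts monocytes, was at 100.1 in CKO 4OHT, 91.4 in CKO EtOH, 75.5 in control 4OHT and 69.8 in control EtOH. Cx3cl1 (fractalkine) was between 18.7 and 25.6. The 16 that were not measured were no higher than 19.6 on any array.

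Among 7 granulocyte growth factors and acute cytokines, 3 were measured. Lif, the leukemia inhibitory factor, and Il24, which belongs to the IL-10 cytokines, were higher in CKO 4OHT. The share of all measured genes that were higher was 1.78% against CKO EtOH and 1.45% against control 4OHT. Il24 was at 920 in CKO 4OHT, 42.3 in CKO EtOH, 53.8 in control 4OHT and 53.9 in control EtOH. Lif was at 71.2 in CKO 4OHT and between 22.3 and 25.2 elsewhere, while a second Lif probe set stayed between 6.47 and 8.49. Csf1 was between 26.8 and 35.5. The factors that expand or mobilise granulocytes, Csf2 and Csf3, and Il6 were between 3.92 and 7.79. The median of the list was 1.5 over the measured genes against CKO EtOH and 0.10 over all 7.

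The upstream ligands came next. Of 9 IL-1, TNF and IL-17 ligands read, 7 were measured. Il1a, the IL-1 stored in keratinocytes, was the 1 higher gene, at 36.9 in CKO 4OHT, 13.2 in CKO EtOH, 14.5 in control 4OHT and 12.7 in control EtOH. It was measured through CKO 4OHT alone, so its difference starts from dim signal under the table median. Of all measured genes, 1.78% were higher against CKO EtOH and 1.45% against control 4OHT. Tnf was at 40.3 in CKO 4OHT, 20.2 in CKO EtOH, 24.1 in control 4OHT and 27.9 in control EtOH, a step of 0.99 and 0.74 in the comparisons with CKO EtOH and control 4OHT. Il33 and Il18, further cytokines of the IL-1 family, ran the other way. Il33 was at 118 in CKO 4OHT, 246 in CKO EtOH, 393 in control 4OHT and 216 in control EtOH. Il18 was at 142 in CKO 4OHT, 255 in CKO EtOH, 410.5 in control 4OHT and 225 in control EtOH. Il1f6, Il1f8 and Il1f9, older names of IL-36 cytokines, differed by 1.19 to 1.35 between control 4OHT and control EtOH, on the side of control 4OHT, and none of them was past 2-fold in CKO 4OHT against either array.

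The receptors and adaptors through which these ligands act showed no 2-fold difference in any of the 4 comparisons, with 19 of 20 read genes measured and medians of -0.02 against CKO EtOH and -0.00 against control 4OHT. Few of all measured genes were past 2-fold, 1.78% higher and 1.86% lower against CKO EtOH, so this absence says little. Tnfrsf12a, the receptor of the cytokine TWEAK, came closest, at 265 in CKO 4OHT and between 134 and 148 elsewhere. Of 8 measured inhibitors of IL-1 and Toll signalling, 0 were higher and 1 was lower in CKO 4OHT against CKO EtOH. Over all measured genes 1.86% were lower there. Against control 4OHT 0 of the inhibitors were higher and 3 were lower, where 2.24% of all measured genes were lower. With the drug in control cells 2 of the 8 were higher, where 1.27% of all measured genes were. Il1f5, the older name of the IL-36 receptor antagonist, was at 80.0 in CKO 4OHT, 101 in CKO EtOH, 225 in control 4OHT and 81.9 in control EtOH. A second, dimmer Il1f5 probe set stayed short of 2-fold, at 19.5 in CKO 4OHT, 21.0 in CKO EtOH, 27.7 in control 4OHT and 20.9 in control EtOH. Il1r2, the decoy receptor of IL-1, was at 13.6 in CKO 4OHT, 17.9 in CKO EtOH, 22.3 in control 4OHT and 13.0 in control EtOH. Il1rn, the IL-1 receptor antagonist, was 41.0 in CKO 4OHT, 70.0 in CKO EtOH, 100.1 in control 4OHT and 39.99 in control EtOH. Other Il1rn probe sets gave -0.59 and -1.23 against CKO EtOH, and -0.95 and -2.11 against control 4OHT. The counts above use the brightest probe set alone. Socs3, which dampens cytokine receptors, was 40.3 in CKO 4OHT against 81.0 to 101 elsewhere, a difference of -1.03 from CKO EtOH that its other probe sets gave as -0.85 and -0.41.

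Transcripts of NF-kB and its kinases came next. Of 6 measured subunits and kinases, the 1 past 2-fold against either array was Ikbke, an IKK-related kinase, at 191 in CKO 4OHT against 73.2 to 79.0. Among all measured genes, 1.78% were higher against CKO EtOH and 1.45% against control 4OHT. Rela, the main activating subunit, was 197 in CKO 4OHT against 211 to 252, and Relb was lower by less than 2-fold, at 27.1 against 38.0 to 51.4. Nfkbia, the inhibitor that NF-kB induces in feedback, was between 1161 and 1216 by its brightest probe set. A dimmer one differed, with 646 in CKO 4OHT, 401 in CKO EtOH, 439 in control 4OHT and 411 in control EtOH. Nfkbiz, a nuclear cofactor of NF-kB, was 143 in CKO 4OHT against 120 to 136.

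Of 10 measured targets of NF-kB other than the chemokines, 2 were higher against CKO EtOH, where 1.78% of all measured genes were. These were Tnfaip2 and the survival gene Ier3, and the list median was 0.10. Against control 4OHT, 1 was higher, where 1.45% of all measured genes were, with a list median of 0.05. Tnfaip2, a TNF-induced gene, was 131 in CKO 4OHT against 39.7 to 44.4. Ier3 was 1551 in CKO 4OHT, 644 in CKO EtOH, 798 in control 4OHT and 618 in control EtOH. Birc3, an inhibitor of apoptosis, was 112 in CKO 4OHT against 137 to 210. Birc2, a related inhibitor, was 22.1 against 31.8 to 43.7, and Ptgs2, the inducible cyclooxygenase, was 64.8 against 42.6 to 75.4.

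Decay of chemokine messages was represented by 8 measured factors, none past 2-fold in any of the 4 comparisons, with medians of 0.14 and 0.26. With 1.78% of all measured genes higher and 1.86% lower against CKO EtOH, that count says little about them. Zfp36l2 and Zfp36l1, which bind AU-rich elements, were at 887 and 164 in CKO 4OHT, with 782 and 257 in CKO EtOH, 793 and 223 in control 4OHT and 699.9 and 279 in control EtOH. Of 6 measured proteases and proteoglycans that cut or bind chemokines, Mmp3 (stromelysin 1) was higher at 20.7 in CKO 4OHT against 8.18 to 11.7. Mmp3 passed the level filter of 20.04 only just and through CKO 4OHT alone, so its difference rests on dim signal. Mmp2 (gelatinase A) was lower at 43.4 against 101 to 119.

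**Figure D4:**
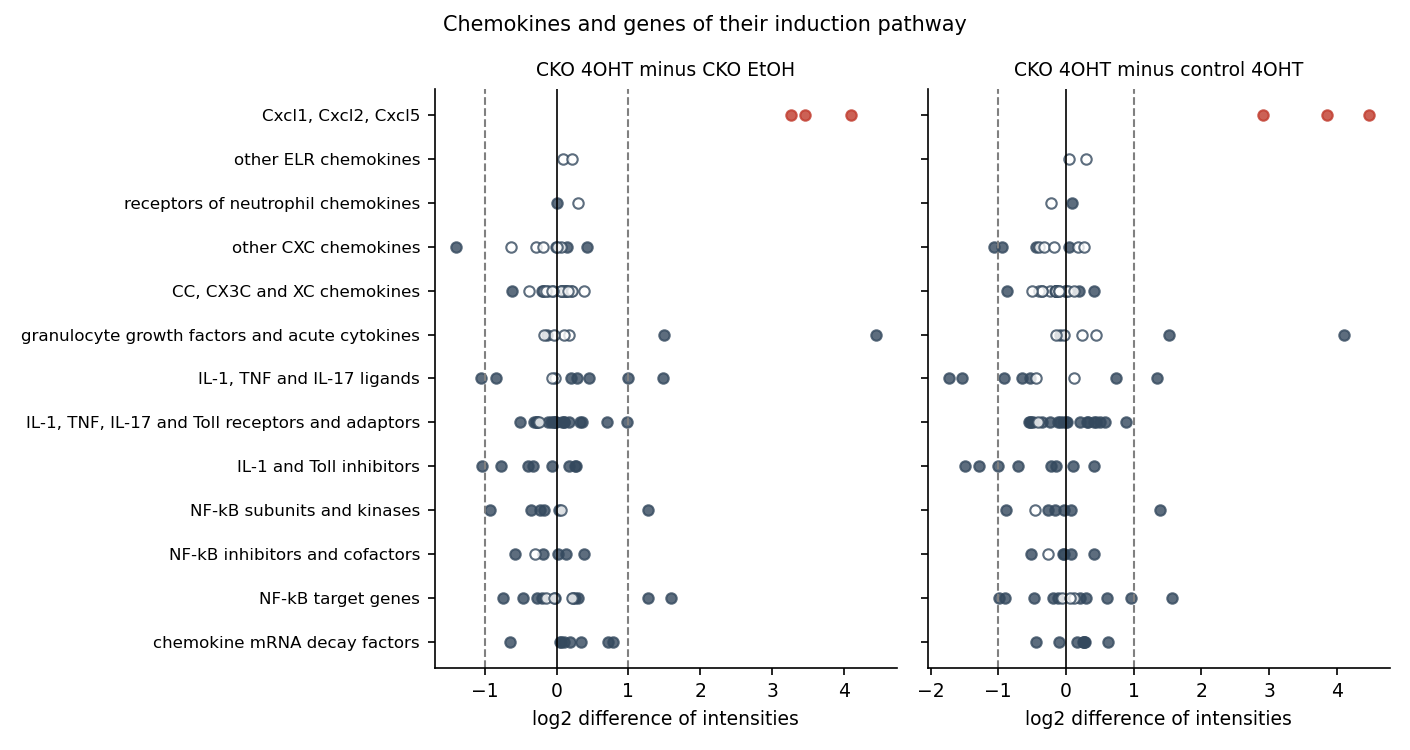
Log2 differences of CKO 4OHT from CKO EtOH (left) and from control 4OHT (right) for the chemokines and the gene lists of their receptors, inducers and regulators, 1 point per gene, filled where the gene was measured and open where it was under the level filter, with 2-fold as dashed lines. Cxcl1, Cxcl2 and Cxcl5 lie between 2.91 and 4.47, and so does Il24, at 4.44 and 4.10. The AP-1 and ERK response genes and the genes for chemokine processing and binding are not plotted, and Dusp6 and Phlda1 of the AP-1 and ERK list lie in the same range too.

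AP-1 and ERK response genes were the last list. Like the other lists, it was chosen with earlier results of these data known, so its counts are a description. Of 17 measured, 6 were higher and 0 lower against CKO EtOH (median 0.87), where 1.78% of all measured genes were higher and 1.86% lower. Against control 4OHT 6 were higher and 1 lower (median 0.69), where 1.45% of all measured genes were higher and 2.24% lower. Of the genes counted as higher, Dusp6, Fosl1 and Ereg were under the table median on every array but CKO 4OHT. They were measured through CKO 4OHT alone, so their differences start from dim signal. Dusp6, a phosphatase that ERK induces and that switches ERK off, was 108 in CKO 4OHT against 9.75 to 12.5. Fos, an AP-1 subunit, was 172 against 27.1 to 32.3, Fosl1 59.4 against 17.1 to 17.5, and Hbegf, an EGF receptor ligand, 233 against 52.6 to 67.1. Phlda1 was 432 against 47.5 to 51.3. Myc, a growth-promoting transcription factor, was 312 in CKO 4OHT against 134 to 161, past 2-fold over control 4OHT (1.22) and short of it over CKO EtOH (0.96). Dusp1, a phosphatase of MAP kinases, was 273 against 155 to 181. Jun was lower by less than 2-fold, at 147 against 188 to 250.3. Egr1, an immediate early factor, was 40.01 in CKO 4OHT, 75.4 in CKO EtOH, 80.5 in control 4OHT and 55.4 in control EtOH.

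The genes with a profile most like that of the chemokines were then sought among all measured genes. Each profile of log2 values over the 4 arrays was centred on its own mean, and likeness was the root mean square difference from the mean profile of the 3 members. The members lay 0.0938 (Cxcl1), 0.267 (Cxcl2) and 0.300 (Cxcl5) from that mean. Each member is part of the mean, which makes its own distance smaller, so these distances cannot be compared with those of other genes. The nearest other gene was Dusp6 at 0.244, followed by Hmga2, a chromatin protein of embryonic tissue (0.301), Phlda1 (0.332) and Il24 (0.339). Fst (follistatin), Fos, Ifi209, Mal, Ptges and Cst6 followed, between 0.518 and 0.723. Ptges makes prostaglandin E2 and was 388 in CKO 4OHT, 80.6 in CKO EtOH, 97.35 in control 4OHT and 76.5 in control EtOH. Ranking by Pearson correlation over the 4 arrays, which disregards the size of a difference, shared 0 of these 10 genes, so the list belongs to the measure used.

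**Figure D5:**
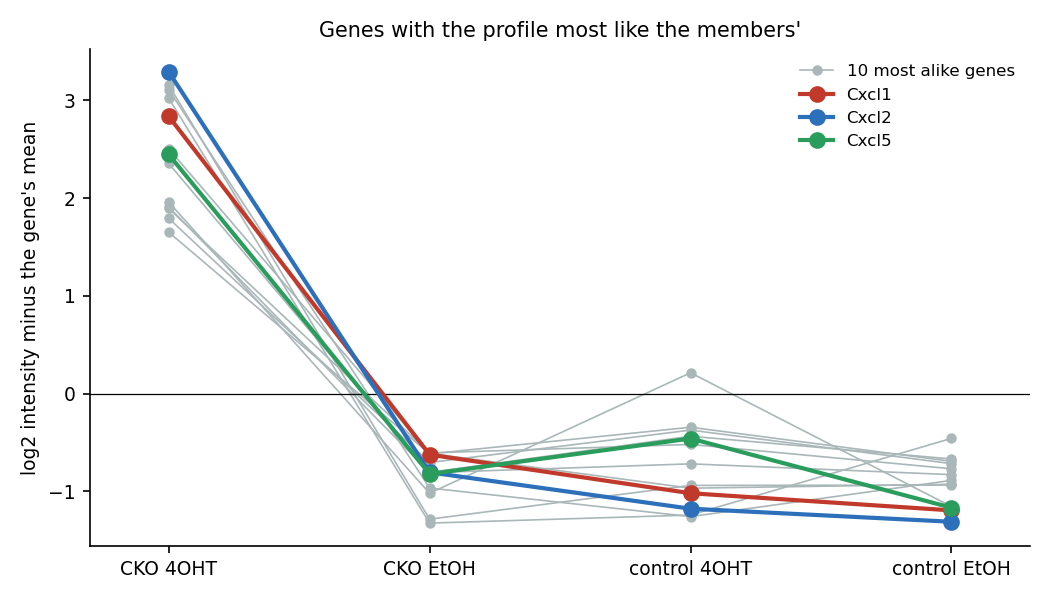
Log2 intensity minus the gene's own mean on the 4 arrays for Cxcl1, Cxcl2, Cxcl5 (coloured) and the 10 genes nearest to their mean profile (grey), 1 array per group. CKO 4OHT is the high point of every line, and the lines also differ from each other on the other 3 arrays.

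Markers of cells other than keratinocytes were set beside these values. Of 11 neutrophil markers read, S100a8 and S100a9, which keratinocytes also make, were measured, and the other 9, among them Mpo, Elane, Camp and Csf3r, were no higher than 18.7. The highest of these 9 was Ltf, at 18.7 in CKO 4OHT, 9.14 in CKO EtOH, 14.9 in control 4OHT and 13.0 in control EtOH. It was thus 1.03 above CKO EtOH, on signal under the table median throughout. The summed intensity of the 11 was 3996 in CKO 4OHT, 4611 in CKO EtOH, 7388 in control 4OHT and 3469 in control EtOH. Nearly all of it was S100a8 and S100a9, and the other 9 summed to 85.3 in CKO 4OHT, 75.5 in CKO EtOH, 86.1 in control 4OHT and 84.4 in control EtOH. Of 11 macrophage and monocyte markers, 2 were measured, Cd68 and Cd14, and the sum was 210 in CKO 4OHT against 275 to 300.2. Cd68 was at 98.2 in CKO 4OHT against 171 to 198, and Cd14 was at 32.8 in CKO 4OHT against 19.6 to 26.4. Without Cd68, as looked at after the values were seen, the other 10 summed to 111 in CKO 4OHT against 102 to 106. Langerhans and dendritic cell, T cell, fibroblast and endothelial markers summed to between 43.9 and 87.0 per list on every array, with 0 to 2 members per list at or above the table median. Those measured were H2-Eb1 of the first list, Cd3e and Cd4 of T cells and Dcn of fibroblasts, at 29.7 or less. Melanocyte markers summed to 146 in CKO 4OHT, 119 in CKO EtOH, 129 in control 4OHT and 126 in control EtOH. Among them Dct was at 40.3 in CKO 4OHT against 26.5 to 27.5, and Sox10 at 31.3 against 27.7 to 32.6. Their part in the chemokine values was not tested. In bulk RNA, more cells that make a chemokine and more message per cell cannot be told apart.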

How the data were processed

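Total RNA of 4 keratinocyte cultures was hybridised to the Affymetrix Mouse Expression Array 430A, 1 array per group. The deposited table holds 1 linear intensity for each of 22626 probe sets, made with RMA per the submitters' processing notes (version not given in the sources used here). It has no detection calls, RMA compresses dim differences, and the number of arrays limits the precision.

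From these intensities log2 was taken with no pseudocount (pandas 2.3.3, numpy 2.4.6, Python 3.11.15). Of the probe sets, 20380 named 1 gene, 691 several and 1555 none in the platform annotation. The probe set with the highest mean stood for a gene. With 1 array per group no test was run. Counting steps were tested on simulated data. Promoters came from RefSeq (GRCm38.p6) and were aligned with Biopython 1.88.

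The members, 15 gene lists and 8 marker lists were chosen with earlier results of these data known. The text names the members, other ELR chemokines and receptors, list members past 2-fold in any comparison (or the 2 brightest of a list with none), measured neighbours and the 10 most alike genes. Cxcl15, Ppbp and Pf4 as neighbours, Csf1, Csf2, Csf3, Il6, Rela, Ptprc, the named neutrophil markers, Cd14 and the genes of the closing observation were added after their values were seen.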

Additional observations from a re-analysis of the deposited data

Results flagged for a closer look

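For 5 named genes the drug effect pointed in opposite directions in the CKO and control cultures, by at least 1.5-fold on each side. With 1 array per group the difference was not tested. The difference of the drug effects was 5.13 for Fst (4.35 in CKO cells and -0.78 in control cells), which is the fifth gene in likeness to the chemokines. It was -1.71 for Il18 (-0.85 and 0.87), -2.10 for Il1rn (-0.77 and 1.32), -1.92 for Il33 (-1.06 and 0.86) and -2.74 for Prdm1 (-1.40 and 1.34). The Prdm1 value in CKO cells rests on dim signal. For Cxcl1, Cxcl2 and Cxcl5 the difference was positive in both genotypes, but in control cells it was 0.18, 0.13 and 0.71, short of 2-fold. The control values of Cxcl2 and Cxcl5 were under the table median, so the sign of their difference there is not resolved.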

How the results depend on the processing

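No paired analysis was possible because each group had 1 array. Of 45 member values under 3 alternatives, 35 moved by no more than 1.5-fold and 0 changed sign. Those that moved belong to the dim arrays of Cxcl2 and Cxcl5. With log2(intensity + 16), Cxcl2 was 3.03 against CKO EtOH and 3.19 against control 4OHT, and Cxcl5 was 2.26 and 2.09. With values under the table median set to it, an alternative chosen after seeing the data, Cxcl2 was 3.46 in both comparisons, Cxcl5 was 2.59 against CKO EtOH, and its drug effect in control cells was 0. Of 104 list medians under alternatives added later, 4 moved, all of them of the granulocyte growth factor list.

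Numbers of genes past the threshold, for CKO 4OHT against CKO EtOH, CKO 4OHT against control 4OHT, control 4OHT against control EtOH, CKO EtOH against control EtOH, the difference of drug effects and genes apart in CKO 4OHT, were 272, 275, 113, 4, 421 and 137. They became 140, 147, 63, 2, 217 and 67 with log2(intensity + 16), 831, 947, 587, 100, 1465 and 423 at 1.5-fold, and 72, 81, 15, 1, 123 and 36 at 3-fold. The share of higher genes moved with log2(intensity + 16) to 100% for the drug in control cells (84.1% without it) and to 53.7% for genes apart (40.9%). At 1.5-fold it was 50.3% for the drug in control cells, 44.0% for CKO EtOH against control EtOH (100% at 2-fold) and 52.4% for CKO 4OHT against control 4OHT (39.3%). At 3-fold it was 100% for the drug in control cells and 58.3% for genes apart, and with the probe set of largest range 73.6% for the drug in control cells. The other filters, quantile normalization and the choice of probe set kept each count within 1.5 times.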

Other observations

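Genes with the exact kappa B letters within the 250 bases before the start were set beside the chemokines after the values were seen. Of the 28 genes with GGGAATTTCC there, 15 were read and 7 measured, and apart from Cxcl1 and Cxcl2 these were Map3k7, Nfkbia, Trio, Tufm and Zfp84. By their brightest probe sets these 5 differed by between -0.12 and 0.15 in CKO 4OHT against CKO EtOH and by between -0.17 and 0.39 against control 4OHT. Their other measured probe sets differed by up to 0.69 and 0.56, the values of one for Nfkbia. Of the 5, 0 were higher by 2-fold, where 1.78% and 1.45% of all measured genes were, so this count says little about them.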
